A study of Mus musculus with 186 samples.

Results

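SB525334, a small molecule that blocks the kinase of the TGF-beta receptor ALK5, was compared with its vehicle in skin taken 21 days after the start of bleomycin injections. The comparison was defined by the column names of the expected-count table: 9 SB525334 libraries and 7 vehicle libraries, 16 of the 186 libraries of the study, with 15825 of 22095 gene IDs tested. All 16 came from punch biopsies of female C57BL/6 mice of about 12 weeks, with no transgene or deletion named in the labels. Both groups had received bleomycin, a DNA-cleaving antibiotic that causes fibrosis, under shaved skin between the shoulders at 10 mg/kg/day, 5 times per week for 2 weeks. SB525334 at 30 mpk (milligrams per kilogram) BID, or vehicle, was given by mouth from day 12. The 8 PBS libraries of day 21 had phosphate-buffered saline in place of bleomycin, and oral vehicle. The wider study sampled lung and skin at 5 times after bleomycin or PBS as a model of scleroderma, a disease of fibrosis, and the question here is what blocking ALK5 changes once injury is under way. The labels number the replicates but do not say that each is a separate mouse, so the p-values measure the spread between these samples.

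TGF-beta is stored in the matrix in a latent form held by LTBP proteins and released by integrins. The active ligand joins its type II receptor (Tgfbr2) with ALK5 (Tgfbr1), which phosphorylates SMAD proteins that enter the nucleus and act on target genes. In the dermis the pathway is best known for driving fibroblasts to make collagen, and in the epidermis for holding back keratinocyte growth. The epidermis renews itself from a basal layer that expresses Krt5 and Krt14, whose daughter cells move up and switch to Krt1, Krt10 and the proteins of the cornified envelope.

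In SB525334 skin 17 of 24 genes of the differentiating epidermis were higher than in vehicle skin, and 7 of 11 fibrillar collagen, 8 of 12 small proteoglycan and 9 of 20 resting fibroblast genes were lower. Of the 15825 genes tested 1872 (11.8%) passed a Benjamini-Hochberg adjusted p of 0.05 in edgeR's quasi-likelihood test, 919 higher (5.81%) and 953 lower (6.02%) with SB525334. Changes were moderate: 73 of the higher and 135 of the lower genes differed at least 2-fold. Genes said below to rise or fall passed this test. A gene's level is in CPM, counts scaled to a library total of 1000000, and its change is the log2 fold change, SB525334 minus vehicle, with its standard error (SE). The median over all genes tested was -0.03.

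Total expected counts were 17.93 to 27.76 M in SB525334 libraries and 14.8 to 26.63 M in vehicle libraries, where 1 M is 1000000 counts. All 16 libraries expressed skin genes, with Krt5 at 1899 to 3456 CPM with a median of 2420 with SB525334 and 1457 to 2359 CPM with a median of 1547 with vehicle. Vehicle replicate 3 also held lung epithelial transcripts, with 968.1 CPM summed over 7 genes. The SB525334 libraries ranged from 62.5 to 199 CPM, with replicates 5 and 8 highest, and the other vehicle libraries from 64.7 to 82.1 CPM. PBS skin ranged from 56.55 to 264 CPM, so SB525334 replicates 5 and 8 were inside the PBS range. Without vehicle replicate 3 alone 1348 genes were called, 718 higher and 630 lower. Without vehicle replicate 3 and SB525334 replicates 5 and 8, the 3 libraries richest in these transcripts, 776 genes (4.89%) were called. Of these 369 were higher (2.33%) and 407 lower (2.57%), and 767 were among the 1872. SB525334 replicate 8 and vehicle replicate 4 were rich in neutrophil and wound transcripts, and without these 2 libraries 1864 genes were called, 1131 higher (7.13%) and 733 lower (4.62%). The libraries were made on 2 plates, 3 SB525334 and 3 vehicle libraries on plate 1 and 6 and 4 on plate 2. Fitted within the model of all skin libraries, plate 1 alone gave 772 calls (4.88% of genes, 2.77% higher and 2.11% lower) and plate 2 alone gave 179 (1.13%, 0.379% higher and 0.752% lower). Of the 919 higher genes 918 had the same sign on plate 1 and 919 on plate 2, and of the 953 lower genes 953 and 942 did. These genes were called from the same libraries. The treatment effect differed between plates for 15 genes, of which Sftpc, Sftpb, Sftpd, Sftpa1, Scgb1a1 and Ager are well-known lung genes.

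**Figure D1:**
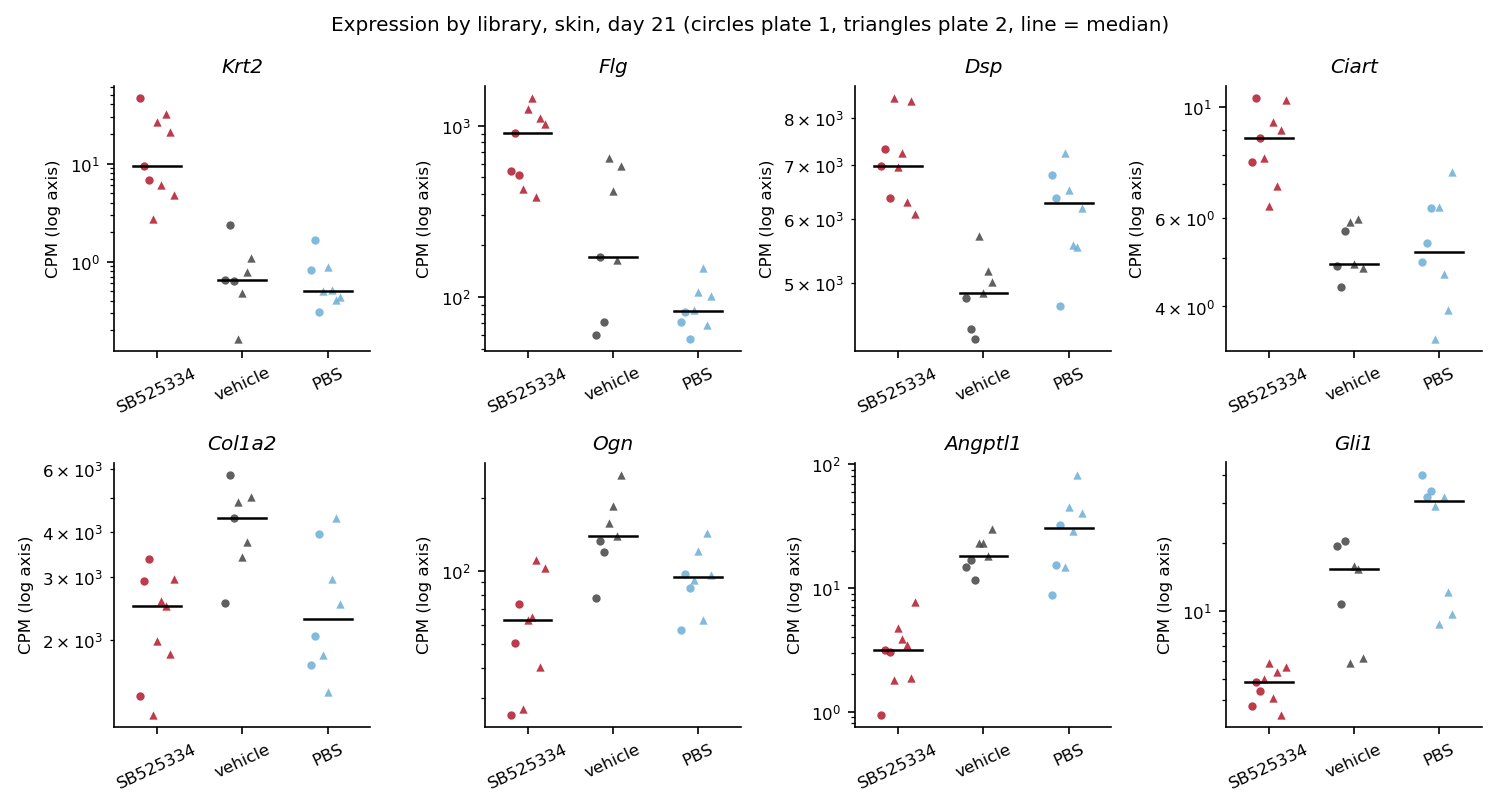
Levels of 8 genes in every day 21 skin library, in CPM on log axes, for SB525334 (9 libraries), vehicle (7) and PBS (8), with circles for plate 1, triangles for plate 2 and a line at the median. Krt2, Dsp and Ciart lay above every vehicle library in all SB525334 libraries, and Angptl1 and Gli1 below every one.

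The 250 bases before and 50 after the start of transcription are shown for 5 genes that carry the main changes, Krt2 and Flg of the epidermis, Col1a2 and Col3a1 of the dermis, and Ciart of the circadian clock. They are RefSeq sequences of GRCm38.p6, written 5′ to 3′ along the gene. Capitals mark 3 short motifs searched on both strands: CAGACA, a SMAD-binding sequence held by 21.0% of all 32851 promoters of this length, TGANTCA, the AP-1 site, held by 7.81%, and CACGTG, the E-box bound by clock proteins, held by 7.15%. The Krt2 promoter (chr15:101818120-101818419, minus strand) holds none of the 3. The Flg promoter (chr3:93273296-93273595, plus strand) holds 1 TGANTCA match. The Col1a2 promoter (chr6:4505368-4505667, plus strand) holds 1 CAGACA match and that of Col3a1 (chr1:45311288-45311587, plus strand) holds 2. The Ciart promoter (chr3:95882179-95882478, minus strand) holds 3 CACGTG and 2 CAGACA matches, of which 1 CACGTG overlaps 1 CAGACA match. On the other strand CAGACA reads TGTCTG.
Krt2: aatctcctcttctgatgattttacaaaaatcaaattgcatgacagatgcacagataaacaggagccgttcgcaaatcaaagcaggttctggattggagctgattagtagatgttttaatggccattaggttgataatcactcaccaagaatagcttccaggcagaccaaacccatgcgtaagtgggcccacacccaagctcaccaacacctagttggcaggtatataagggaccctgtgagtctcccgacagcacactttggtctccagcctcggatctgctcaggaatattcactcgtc
Flg: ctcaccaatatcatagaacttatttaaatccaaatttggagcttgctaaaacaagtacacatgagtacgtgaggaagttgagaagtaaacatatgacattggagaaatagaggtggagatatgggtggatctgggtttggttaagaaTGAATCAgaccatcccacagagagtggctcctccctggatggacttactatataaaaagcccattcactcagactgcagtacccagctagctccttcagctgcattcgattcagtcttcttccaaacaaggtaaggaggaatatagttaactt
Col1a2: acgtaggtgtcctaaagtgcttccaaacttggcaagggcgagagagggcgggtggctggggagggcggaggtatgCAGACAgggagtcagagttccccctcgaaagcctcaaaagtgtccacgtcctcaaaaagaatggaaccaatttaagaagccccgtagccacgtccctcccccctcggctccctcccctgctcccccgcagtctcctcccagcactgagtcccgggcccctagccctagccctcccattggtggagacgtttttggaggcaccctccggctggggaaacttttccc
Col3a1: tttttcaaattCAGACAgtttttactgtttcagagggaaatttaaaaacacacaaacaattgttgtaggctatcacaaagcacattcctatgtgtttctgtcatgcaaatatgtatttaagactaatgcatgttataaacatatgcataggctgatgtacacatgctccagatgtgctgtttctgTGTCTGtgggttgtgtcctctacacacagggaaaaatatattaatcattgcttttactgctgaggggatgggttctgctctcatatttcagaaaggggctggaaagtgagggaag
Ciart: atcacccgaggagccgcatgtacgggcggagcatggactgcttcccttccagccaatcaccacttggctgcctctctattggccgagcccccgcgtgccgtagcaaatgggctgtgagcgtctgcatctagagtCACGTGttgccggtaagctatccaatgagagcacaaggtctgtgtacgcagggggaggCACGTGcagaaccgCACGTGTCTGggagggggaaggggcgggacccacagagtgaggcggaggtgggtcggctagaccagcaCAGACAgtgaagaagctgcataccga
Of the fibrillar collagen genes that fell 5 had a promoter in the table, of which 2 held CAGACA, and of the small leucine-rich proteoglycan genes that fell 7 had one, of which 0 did. Of the suprabasal keratinocyte genes that rose 13 had one, 3 with CAGACA and 3 with TGANTCA. Of the clock genes that rose 4 had one, 2 with CACGTG. A match is a string of letters and not a shown binding site, and no match says only that the letters are not in this window.

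The target and its pathway were followed first. Tgfbr1, which encodes ALK5 itself, was 89.0 to 123 CPM with a median of 102 in SB525334 skin and 80.8 to 126 CPM with a median of 105 in vehicle skin. The groups overlapped almost fully, at a change of -0.01 ± 0.07 (adjusted p = 0.953). An inhibitor of the kinase need not alter its transcript, so the gene does not check the labels. Among 20 ligand, receptor and latent-binding genes 3 fell (15.0%) and 1 rose (5.0%), against 6.02% and 5.81% of all genes. Those that fell were Ltbp3 (-0.47 ± 0.13, adjusted p = 0.00963) and Ltbp4 (-0.48 ± 0.14, adjusted p = 0.0131), which tether latent TGF-beta, and Acvrl1 (-0.41 ± 0.13, adjusted p = 0.0244), an endothelial receptor. None of the 3 passed without vehicle replicate 3, and Ltbp4 also failed without vehicle replicate 1 or 6, and Acvrl1 without SB525334 replicate 4 or vehicle replicate 2. Itgb8, part of an integrin that activates TGF-beta, rose (0.40 ± 0.10, adjusted p = 0.00501). The ligand Tgfb1 (0.14, adjusted p = 0.624) and Tgfbr2 (-0.25, adjusted p = 0.318) were not called. Acvr1b, the related activin receptor ALK4, rose slightly (0.31 ± 0.06, adjusted p = 3.14e-04).

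Direct targets and feedback genes of ALK5 and SMAD split. Of 30 tested 5 fell (16.7%) and 3 rose (10.0%), against 6.02% and 5.81% of all genes, with a median of -0.02. Tsc22d1, a gene first found by its induction by TGF-beta, was 108 to 139.6 CPM with a median of 121 with SB525334, against 138 to 160.2 CPM with a median of 154 with vehicle. Only the highest SB525334 and the lowest vehicle library overlapped, and it fell (-0.27 ± 0.06, adjusted p = 0.00144). Rhob, a small GTPase, fell (-0.37 ± 0.10), as did Col1a1, given with the collagens, Nox4, an oxidase that makes hydrogen peroxide (-0.87 ± 0.28), and Cilp, a cartilage and fibroblast matrix protein (-0.94 ± 0.31). Nox4 lost its call on leaving out SB525334 replicate 1 or 4 or vehicle replicate 2 or 7, and Cilp on leaving out SB525334 replicate 1, 4, 6 or 8 or vehicle replicate 3, 6 or 7. Klf10, the TGF-beta-inducible early gene, moved the other way at 69.7 to 97.2 CPM with a median of 83.3 with SB525334, against 54.7 to 78.8 CPM with a median of 60.2 with vehicle. It rose (0.39 ± 0.08, adjusted p = 5.72e-04), as did Bhlhe40 (0.62 ± 0.15), a repressor that is also a clock gene, and Cdkn2b (0.51 ± 0.15), an inhibitor of the cell cycle that lost its call without vehicle replicate 1.

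Several of the best-known feedback and matrix targets did not pass. Skil, a SMAD corepressor, was 0.31 ± 0.12 (adjusted p = 0.061), and passed, upward, with DESeq2 (0.33, adjusted p = 0.0393) and on leaving out SB525334 replicate 4 or 7 or vehicle replicate 4. Ccn2, a connective tissue growth factor, was -0.32 ± 0.23 (adjusted p = 0.401), and the inhibitory Smad7 was -0.09 ± 0.23 (adjusted p = 0.862). Pmepa1, another feedback inhibitor (0.18), Tgfbi (0.40), Fn1, which encodes fibronectin (-0.37), Acta2, the actin of myofibroblasts (-0.23), and Timp1 (-0.06) were not called either, at adjusted p of 0.523, 0.187, 0.321, 0.196 and 0.935 in that order. With the hair shaft level as a term Ccn2 was -0.63 (adjusted p = 0.0107) and Fn1 -0.62 (adjusted p = 0.0209), and Tgfbr2 was -0.52 (adjusted p = 2.90e-04). With the resting fibroblast level as a term Smad7 was -0.54 (adjusted p = 0.00231), Tgfbi 0.82 (adjusted p = 8.02e-07) and Acta2 -0.30 (adjusted p = 0.0321). Those 2 models called 29.3% and 30.4% of all genes in that order. The resting fibroblast level separated the groups and the hair shaft medians differed, so each term overlaps with treatment. Tgfbi passed as well with the 2 groups alone (0.41, adjusted p = 0.0212), with plate 1 alone and with limma voom. Cdkn1a (-0.11, adjusted p = 0.451), Spp1 (0.01, adjusted p = 0.997) and Mki67 (-0.21, adjusted p = 0.653), which stand for arrest, wound macrophages and proliferation, were not called, although Mki67 was -0.69 (adjusted p = 0.0019) with the resting fibroblast level as a term.

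Most fibrillar collagens fell. Of 11 fibrillar collagen genes 7 fell and 0 rose, against 6.02% of all genes falling, and their median change was -0.69. Col1a2, which encodes a chain of collagen I, was 1236 to 3374 CPM with a median of 2494 with SB525334, against 2540 to 5800 CPM with a median of 4389 with vehicle and a median of 2287 CPM with PBS. Its lower SB525334 libraries were far under the vehicle range, its upper ones inside it, and the 2 groups overlapped. It fell (-0.87 ± 0.24, adjusted p = 0.00827). Col1a1, the other chain, was 554 to 1467 CPM with a median of 1158 with SB525334 and 1014 to 2644 CPM with a median of 2215 with vehicle. One vehicle library, replicate 1, was as low as the SB525334 skins and the other 6 were higher, and the change was -0.93 ± 0.27 (adjusted p = 0.0123). Col5a2 (-0.69 ± 0.19), which regulates fibril width, and Col24a1 (-1.02 ± 0.27, lost without vehicle replicate 4) fell too. Col3a1, the main collagen of young scar, fell (-0.72 ± 0.23, adjusted p = 0.0293) at 3939 to 10370 CPM with a median of 7306 with SB525334, against 6014 to 16600 CPM with a median of 10620 with vehicle, but lost its call on leaving out SB525334 replicate 1, 4 or 8 or vehicle replicate 2, 4 or 7. Within plates Col1a2 was -0.72 ± 0.39 on plate 1 and -0.97 ± 0.30 on plate 2, and neither passed alone. Without the 3 libraries richest in lung transcripts Col1a2 was -0.82 (adjusted p = 0.051) and 2 of the 11 genes were called. Without the 2 rich in neutrophil transcripts 3 were.

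Small leucine-rich proteoglycans, which coat collagen fibrils and set their spacing, fell in 8 of 12 cases and rose in 0, with a median of -0.77. Of all genes 6.02% fell. Omd (osteomodulin) was 1.02 to 11.3 CPM with a median of 5.90 with SB525334 and 4.35 to 27.3 CPM with a median of 15.3 with vehicle, and fell (-1.53 ± 0.27, adjusted p = 5.05e-05). Ogn (osteoglycin) was 25.5 to 111 CPM with a median of 62.8 with SB525334, against 77.4 to 249.9 CPM with a median of 139 with vehicle, and fell (-1.31 ± 0.24, adjusted p = 8.56e-05). Both genes overlapped between the groups. Ecm2, a relative with the same leucine-rich repeats, was 13.8 to 36.0 CPM with a median of 23.8 with SB525334, against 37.1 to 85.5 CPM with a median of 57.3 with vehicle, and fell (-1.34 ± 0.23, adjusted p = 3.82e-05). The groups did not overlap for Ecm2, as for 98 of all genes (0.619%) that lay lower in every SB525334 library. Ecm2, Aspn (asporin), Omd and Ogn are the 4 protein-coding genes of one stretch of 119.7 kb, chr13:49504810-49624501 on GRCm38, and all 4 fell, with a median of -1.32. This stretch was singled out after its values were seen. Bgn (biglycan, -0.69 ± 0.17) fell, and Lum (lumican, -0.61 ± 0.20) fell but lost its call on leaving out SB525334 replicate 1 or 4 or vehicle replicate 2, 4 or 7. Without the 3 libraries richest in lung transcripts 6 of the 12 were called, and without the 2 rich in neutrophil transcripts 7.

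Other matrix groups had calls in the same direction, where 6.02% of all genes fell and 5.81% rose. Among 13 elastic fibre genes 4 fell and 0 rose. Mfap4, a microfibril glycoprotein, was 9.31 to 42.2 CPM with a median of 26.1 with SB525334, against 50.4 to 111 CPM with a median of 91.9 with vehicle, and fell (-1.67 ± 0.30, adjusted p = 6.43e-05). Fbln5, which assembles elastic fibres, was 32.6 to 49.5 CPM with a median of 44.9 with SB525334, against 57.7 to 74.7 CPM with a median of 66.2 with vehicle, and fell (-0.65 ± 0.12, adjusted p = 1.62e-04). For both genes every SB525334 library was under every vehicle library. Of 20 matricellular genes 4 fell and 0 rose, among them Postn (periostin, -0.93 ± 0.23, adjusted p = 0.0035) and the collagen-binding Sparc (-0.66 ± 0.18, adjusted p = 0.00795). Of 24 collagen-processing and cross-linking genes 4 fell and 0 rose, with Serpinh1, the collagen chaperone, at -0.70 ± 0.16 and Pcolce, which aids removal of the collagen propeptide, at -0.54 ± 0.13. Of 18 minor collagens 4 fell, led by Col14a1 (-1.16 ± 0.25), and of 22 basement membrane genes 6 fell and 1 rose.

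Several fibroblast markers fell. Of 20 genes of resting fibroblasts 9 fell and 0 rose (median -0.41), against 6.02% of all genes falling. Of 22 products of activated fibroblasts 4 fell and 0 rose (median -0.43). The lists share some members, so their counts are not separate results. Postn, for example, is in the matricellular and activated fibroblast lists, and Lum in the proteoglycan and resting fibroblast lists. Summed over the 20 resting genes the level was 3280 to 4539 CPM with a median of 3798 in SB525334 skin and 4594 to 6117 CPM with a median of 5034 in vehicle skin, without overlap. Pdgfra, the receptor that marks dermal fibroblasts, was 79.2 to 159 CPM with a median of 131 with SB525334 and 141 to 261 CPM with a median of 158 with vehicle, and fell (-0.57 ± 0.14, adjusted p = 0.00341). Dpt, or dermatopontin (-0.77 ± 0.17), and Cd34 (-0.89 ± 0.19) fell, and so did Fap, the protease of activated fibroblasts (-0.94 ± 0.16, adjusted p = 2.63e-05). In bulk tissue fewer cells of a type and less RNA per cell cannot be told apart. The resting fibroblast level itself separated the groups, so that a term for it overlaps with treatment. With the resting fibroblast level as a term in the model Col1a2 was -0.69 (adjusted p = 0.0165) and Ogn -1.03 (adjusted p = 5.78e-05), and 5 of 11 fibrillar collagens and 5 of 12 proteoglycans were called lower, in a model that called 13.3% of all genes higher and 17.1% lower. Without the 3 libraries richest in lung transcripts 4 of the 20 resting genes were called.

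Some of the steadiest falls lay outside these lists. Angptl1, an angiopoietin-like protein, was 0.931 to 7.64 CPM with a median of 3.17 with SB525334, against 11.5 to 29.9 CPM with a median of 18.1 with vehicle and 8.70 to 82.8 CPM with a median of 30.6 with PBS. Every SB525334 library was under every vehicle library, and Angptl1 was 5.94-fold lower than with vehicle (-2.57 ± 0.37, adjusted p = 2.97e-06). Pdgfrl, a receptor-like protein (-1.49 ± 0.19), Fndc1 (-1.45 ± 0.21), Tnmd, the tendon protein tenomodulin (-1.47 ± 0.21), and Rnf112 (-2.57 ± 0.37) also did not overlap between the groups. These 4 were singled out after their values were seen. Rnf112 was at 0.529 CPM in vehicle replicate 1 and lower in every SB525334 library, so the size of its change rests on few reads. Angptl1, Pdgfrl, Fndc1 and Tnmd kept their calls in every alternative that was run, including each plate by itself, as no other called gene named here did.

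**Figure D2:**
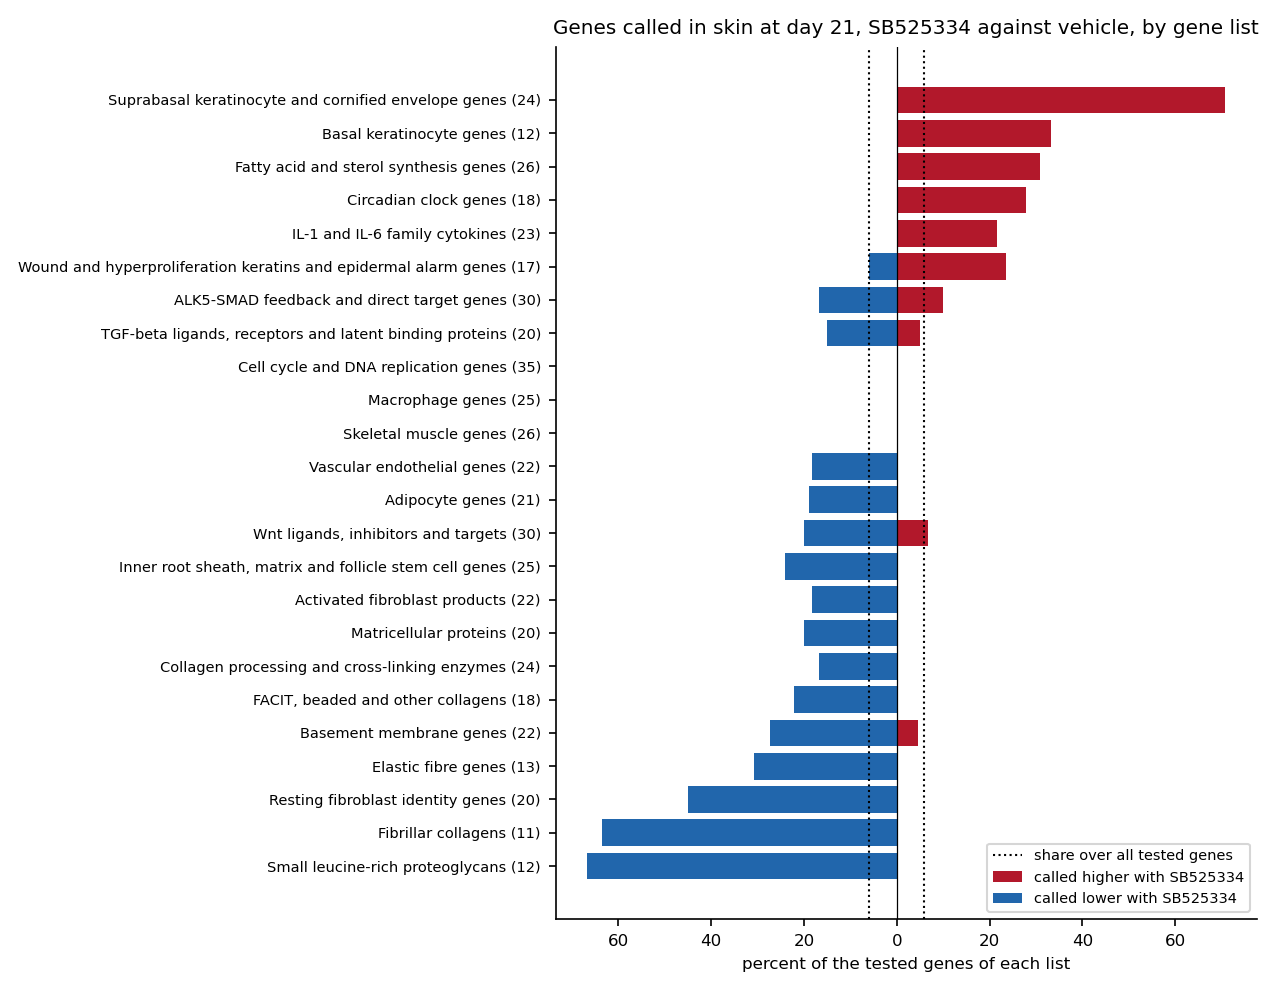
Percent of the tested genes of 24 gene lists that were called higher (red, right) or lower (blue, left) with SB525334, with the number tested in brackets and dotted lines at the shares over all tested genes, 5.81% higher and 6.02% lower. Suprabasal keratinocyte genes stand at the top with 17 of 24 higher, and small leucine-rich proteoglycans at the bottom with 8 of 12 lower.

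Genes of the differentiating epidermis rose. Of 24 genes of suprabasal keratinocytes and the cornified envelope 17 rose and 0 fell, against 5.81% of all genes rising, and their median change was 0.79. Krt2, the keratin of the uppermost living layers, was 2.71 to 46.5 CPM with a median of 9.47 with SB525334, against 0.164 to 2.34 CPM with a median of 0.647 with vehicle and 0.309 to 1.65 CPM with a median of 0.508 with PBS. Every SB525334 library lay above every vehicle library, and Krt2 had the largest rise under the rule for named genes, 18.8-fold (4.23 ± 0.49, adjusted p = 4.68e-09). It kept its call in all 16 fits that left out 1 library. It was 4.08 ± 0.73 on plate 1 and 4.58 ± 0.65 on plate 2, and called on each in the model of all skin libraries, but on neither when a plate was fitted without the other skin groups. Of the 24 suprabasal genes 14 were called higher on plate 1 in that model, and Krt2 alone on plate 2. Flg was 2.70 ± 0.58 on plate 1 and 1.05 ± 0.44 on plate 2 (adjusted p = 0.258), Krt1 2.19 ± 0.55 and 0.72 ± 0.42 (adjusted p = 0.485), and Ivl 1.10 ± 0.24 and 0.38 ± 0.19 (adjusted p = 0.377). Dsp passed on both, at 0.62 ± 0.13 and 0.48 ± 0.11. The difference between plates was not called for any of these 5 genes. As plate 2 minus plate 1 it was -1.64 ± 0.69 for Flg, -1.46 ± 0.67 for Krt1 and -0.72 ± 0.30 for Ivl. For Krt2 it was 0.51 ± 0.88 and for Dsp -0.14 ± 0.17. That test called 15 of 15825 genes, so the missing calls do not show equal effects on the 2 plates.

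Flg (filaggrin), which bundles keratin and yields the skin's moisturising factors, was 383 to 1450 CPM with a median of 903 with SB525334, against 59.7 to 648 CPM with a median of 171 with vehicle and a median of 82.9 CPM with PBS. The 3 highest vehicle libraries reached into the SB525334 range, and Flg rose (1.60 ± 0.36, adjusted p = 0.00125). Dsp (desmoplakin), the linker of desmosomes that join keratinocytes, was 6079 to 8461 CPM with a median of 6977 with SB525334, against 4261 to 5713 CPM with a median of 4862 with vehicle. It rose by a modest 0.54 ± 0.08 (adjusted p = 1.14e-05), yet the groups did not overlap, as for 69 of all genes (0.436%) that were higher in every SB525334 library. Dsc1 (0.78 ± 0.17) and Dsg1a (0.49 ± 0.11), desmosomal cadherins, Asprv1 (0.84 ± 0.19), the protease that processes filaggrin, Ivl (0.64 ± 0.16), or involucrin, and Krt1 (1.22 ± 0.34) rose. Krt10, the partner of Krt1, was 0.68 ± 0.26 (adjusted p = 0.0695) and Lor, or loricrin, 0.45 ± 0.21 (adjusted p = 0.17), and neither passed. Krt10 passed on leaving out SB525334 replicate 7 or vehicle replicate 4 or 7, and with DESeq2 (0.69, adjusted p = 0.0463). Both passed with the 2 groups alone (adjusted p of 0.0176 for Krt10 and 0.00976 for Lor), with limma voom, and with plate 1 alone, where Krt10 was 1.18 (adjusted p = 0.0182) and Lor 0.68 (adjusted p = 0.0272). Both passed too with the resting fibroblast level as a term, which overlaps with treatment, where Krt10 was 1.11 (adjusted p = 3.88e-05) and Lor 0.80 (adjusted p = 2.80e-04).

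Many of these genes lie together. The epidermal differentiation complex from Lor to S100a10, chr3:92080271-93564643 on GRCm38, holds 58 annotated protein-coding genes. Of these 53 were tested, 30 rose and 0 fell, with a median of 1.19, against 5.81% of all genes rising. This stretch was chosen after its values were seen. Its Lce and Sprr genes are near-identical copies, and how the estimated counts divided their reads cannot be checked, so that single members are uncertain. In the 10 largest rises by the rule for named genes, Lce3c, Lce3e, Sprr2d, Sprr2a2 and Sprr2a3 belong to this complex. The other 5 were Krt2, Serpinb3a (2.37 ± 0.54), a protease inhibitor of stressed epidermis, Stfa2 (2.32 ± 0.73), a stefin, Wfdc12 (1.90 ± 0.57), also a protease inhibitor, and Akr1d1 (1.87 ± 0.64), a steroid reductase. Of these 10 only Krt2 and Serpinb3a kept their calls without each library in turn. Without SB525334 replicate 8, Sprr2d, Sprr2a2, Lce3c, Lce3e, Stfa2, Wfdc12 and Akr1d1 were not called, and without vehicle replicate 3 Lce3c, Lce3e, Sprr2a2, Sprr2a3, Stfa2, Wfdc12 and Akr1d1 were not. Without vehicle replicate 4, which was high in these transcripts, the rises were larger: Sprr2d was 4.55, Stfa2 4.05, Lce3e 3.64, Wfdc12 3.42, Lce3c 2.91 and Akr1d1 2.87. Leaving out a high vehicle library enlarges a rise by itself, and SB525334 replicate 8 stayed in that fit. These larger values are therefore no separate support for a rise.

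Of 12 basal keratinocyte genes 4 rose and 0 fell (median 0.35), against 5.81% of all genes rising. Krt14 was 2243 to 8523 CPM with a median of 3866 with SB525334 and 1388 to 6073 CPM with a median of 1821 with vehicle, and rose by 0.83 ± 0.21 (adjusted p = 0.00422). Vehicle replicate 4 reached into the SB525334 range and the other 6 vehicle libraries were lower than 8 of the 9 SB525334 ones. Krt5 (0.54 ± 0.11), its partner, Lama3 (0.46 ± 0.13, lost without SB525334 replicate 8), of the laminin that anchors the epidermis, and Itga6 (0.34 ± 0.11), an anchoring integrin, rose too. Krt14 was 1.43 ± 0.33 on plate 1 and 0.50 ± 0.26 on plate 2 (adjusted p = 0.399). Itga6 lost its call on leaving out SB525334 replicate 4 or 8 or vehicle replicate 2, 3, 5 or 6. Summed over the 12 genes the level was 10150 to 19340 CPM with a median of 12370 with SB525334 and 8568 to 14380 CPM with a median of 8973 with vehicle. Its median was higher with SB525334, so a term for this level overlaps with treatment and can take up part of its effect. With this level as a term in the model Krt2 was 4.73 (adjusted p = 3.42e-10) and Krt1 0.53 (adjusted p = 0.229), and 7 of the 24 suprabasal genes were called higher, Flg among them (adjusted p = 0.00726), against 4.24% of all genes higher and 6.32% lower. The fall of Col1a2 was -0.82 (adjusted p = 0.0291) in that model. Without the 3 libraries richest in lung transcripts 7 of the 24 suprabasal genes and 1 of the 12 basal genes were called.

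Wound keratinocyte genes were uneven. Of 17 tested 4 rose and 1 fell, against 5.81% of all genes rising and 6.02% falling. The classic wound keratins were not called: Krt16 was 262 to 3404 CPM with a median of 928 with SB525334 and 19.0 to 2617 CPM with a median of 127 with vehicle (1.29 ± 0.68, adjusted p = 0.222), and Krt6a was 1.01 ± 0.53 (adjusted p = 0.221). The highest libraries of both groups were SB525334 replicate 8 and vehicle replicate 4 for Krt16. Without these 2 libraries 11 of the 17 genes rose, against 7.13% of all genes, with Krt16 at 3.16 (adjusted p = 7.11e-04) and Krt6a at 2.36 (adjusted p = 4.89e-04). Without vehicle replicate 4 alone both keratins were called higher as well. The libraries left out were chosen after they were seen to be rich in such transcripts, so these values are no separate support for a rise. Krt75, a keratin of the hair companion layer, was the one that fell (-2.08 ± 0.59, adjusted p = 0.012).

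Some keratinocyte cytokines rose. Of 23 genes of the IL-1 and IL-6 families 5 rose and 0 fell, against 5.81% of all genes rising. Il1a, an alarm cytokine stored in keratinocytes, was 20.3 to 40.8 CPM with a median of 24.1 with SB525334, against 9.15 to 23.1 CPM with a median of 14.1 with vehicle, and rose by 0.90 ± 0.21 (adjusted p = 0.0016). Il1f8 (1.21 ± 0.29) and Il1f9 (0.93 ± 0.27), which are IL-36 cytokines, and Il18 (0.76 ± 0.19) rose. The myeloid and fibroblast cytokines Il1b (0.24, adjusted p = 0.834) and Il6 (-0.33, adjusted p = 0.74) were not called. With the basal keratinocyte level as a term, which overlaps with treatment, Il1a was 0.50 (adjusted p = 0.0736). In that model 0 of the 23 genes were called higher and 3 lower, against 4.24% and 6.32% of all genes.

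Fatty acid and sterol synthesis genes, which feed both the skin barrier and sebum, rose in 8 of 26 cases and fell in 0 (median 0.31). Of all genes 5.81% rose. Sqle, squalene epoxidase of the cholesterol pathway, was 81.2 to 174 CPM with a median of 120.5 with SB525334, against 68.5 to 134 CPM with a median of 89.1 with vehicle. The ranges overlapped, with a rise of 0.48 ± 0.11 (adjusted p = 0.00223). Mvk (0.36 ± 0.09) and Dhcr7 (0.41 ± 0.12), of the same pathway, and Elovl6 (0.72 ± 0.20), which lengthens fatty acids, rose. With the basal keratinocyte level as a term, which overlaps with treatment, 0 of the 26 were called. Of 17 sebaceous gland genes 0 were called by edgeR, with 2 at an unadjusted p under 0.05, and 0 by DESeq2 and limma voom. With the resting fibroblast level as a term, which overlaps with treatment, 12 were higher, against 13.3% of all genes.

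Clock genes were higher in 5 of 18 cases and lower in 0, against 5.81% of all genes higher. Ciart, a repressor of the circadian clock, was 6.35 to 10.4 CPM with a median of 8.66 with SB525334, against 4.37 to 5.98 CPM with a median of 4.85 with vehicle. The groups did not overlap, and it rose by 0.71 ± 0.15 (adjusted p = 4.63e-04). Dbp, a clock output factor, was 0.95 ± 0.28 (adjusted p = 0.014) and Per3, a period gene, 0.68 ± 0.16 (adjusted p = 0.00263). In lungs of the day 21 groups Dbp was 1.51 ± 0.27 and Per3 0.89 ± 0.16, and 5 of 18 clock genes rose and 1 fell, in a comparison that called 0.139% of genes higher and 0.0784% lower. The labels do not give the hour of sampling, and its part was not tested.

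Hair shaft genes had large negative changes with wide errors. The 29 hair keratins and keratin-associated proteins tested had a median of -4.49, yet 2 fell by the test (6.9%, against 6.02% of all genes). Summed over the 29 the level was 28.0 to 352 CPM with a median of 35.8 in SB525334 skin, against 41.0 to 2332 CPM with a median of 603 in vehicle skin and 35.5 to 43720 CPM with a median of 1853 in PBS skin. SB525334 replicate 7 stood apart from its group, and vehicle replicate 4 was as low as the SB525334 skins. Shaft genes are known as products of the growing follicle, and the part of the hair cycle was not tested. Krt35 (-4.33 ± 1.51, adjusted p = 0.0455) and Krtap5-2 (-4.92 ± 1.72, adjusted p = 0.046) were the 2 that fell, and each kept its call only without SB525334 replicate 7, vehicle replicate 4 or vehicle replicate 7 among the 16 fits that left out 1 library. Krtap5-2 was at 0 CPM in 8 of the 9 SB525334 libraries and 0.677 CPM in replicate 7, so that the size of its change rests on that library. Of 25 root sheath, matrix and stem cell genes 6 fell and 0 rose, among them Lhx2 (-1.26 ± 0.25, adjusted p = 2.65e-04) and Lgr5 (-0.92 ± 0.27, adjusted p = 0.015), which mark follicle stem cells. With the 2 above, S100a3, Foxe1, Krt28, Mycn, Angptl1, Hhip, Corin and Nnat were the 10 largest falls, and of the 10 Angptl1, Hhip and Mycn kept their calls without each library in turn. Nnat, an imprinted gene, was -2.92 ± 0.83 on plate 1 and 0.07 ± 0.72 on plate 2, with a difference between plates that was not called (adjusted p = 1).

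Hedgehog genes, singled out after their values were seen, fell in the same skins. Shh, the ligand that the growing follicle makes, was 0 to 0.621 CPM with a median of 0.0782 with SB525334 and 0.0919 to 2.60 CPM with a median of 1.59 with vehicle (-3.32 ± 0.98, adjusted p = 0.016). All SB525334 libraries were under 1 CPM, and 2 of them were at 0. Gli1, the transcription factor whose own transcript reports pathway activity, was 3.44 to 5.87 CPM with a median of 4.85 with SB525334, against 5.89 to 20.4 CPM with a median of 15.3 with vehicle and 8.76 to 40.1 CPM with a median of 30.5 with PBS. Every SB525334 library lay under every vehicle library, by a narrow gap, and Gli1 fell (-1.43 ± 0.34, adjusted p = 0.00233). The pathway's feedback inhibitor Hhip fell (-2.43 ± 0.49). With the hair shaft level as a term Gli1 was -0.95 (adjusted p = 0.0126), Hhip -1.55 (adjusted p = 0.00117) and Shh -1.82 (adjusted p = 0.0582). With the basal keratinocyte level as a term Gli1 was -0.83 (adjusted p = 0.104). Both terms overlap with treatment.

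**Figure D3:**
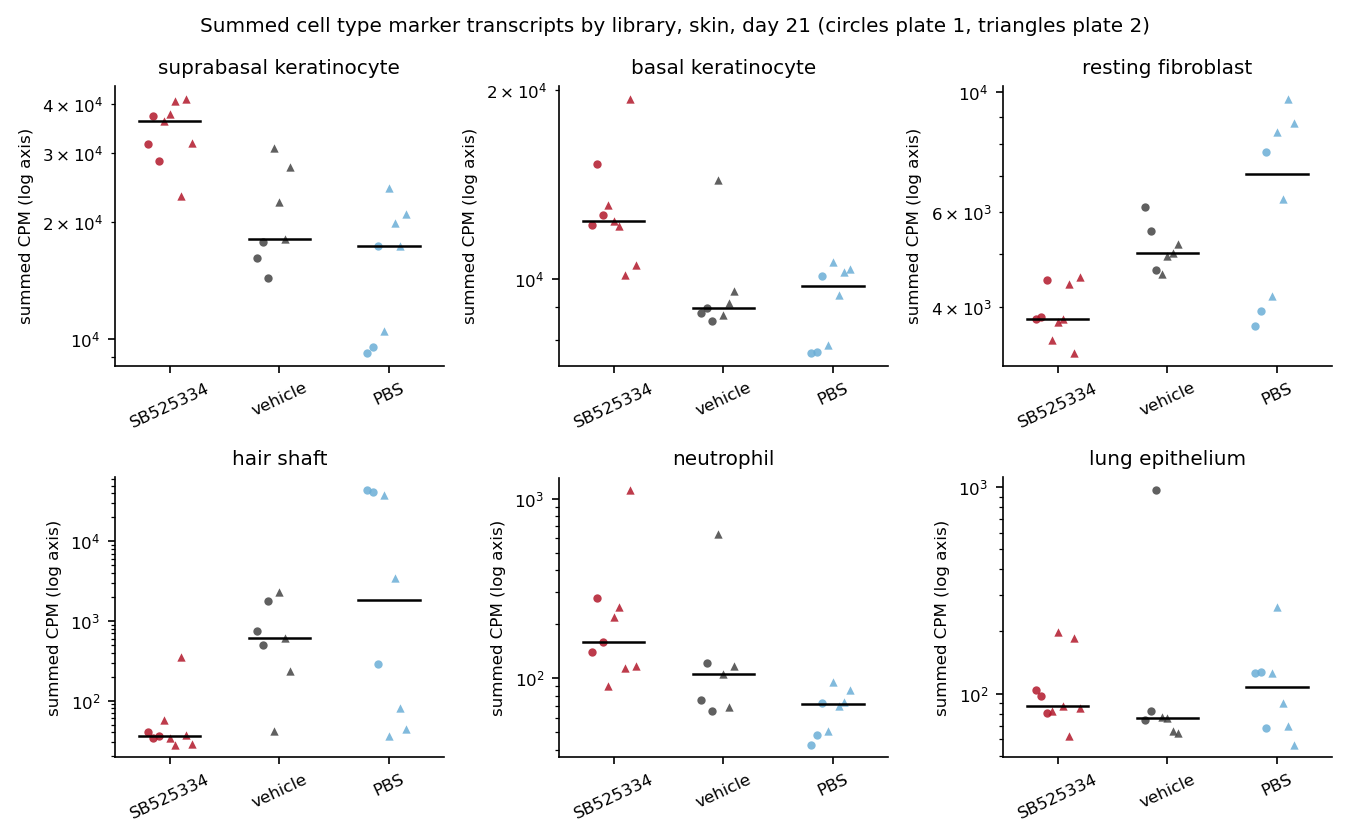
Summed CPM of 6 marker lists in every day 21 skin library, on log axes, with the groups and symbols of the plot of gene levels. The suprabasal keratinocyte sums are mostly higher and the resting fibroblast sums all lower in SB525334 than in vehicle libraries, vehicle replicate 3 stands alone in lung epithelium, and SB525334 replicate 8 and vehicle replicate 4 in neutrophil transcripts.

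Immune, muscle and proliferation genes gave few calls. By edgeR 0 of 25 macrophage, 0 of 13 neutrophil and 0 of 20 antigen presentation genes were called, against 11.8% of all genes. So were 0 of 35 cell cycle and 0 of 26 skeletal muscle genes. At an unadjusted p under 0.05 were 2, 3, 0, 0 and 0 of them in that order, against 4055 of all 15825 genes. DESeq2 called 0 of each list, against 2165 of 22095 genes. An absence of calls does not show that a list was unchanged. Limma voom with quality weights called 1 macrophage and 3 neutrophil genes higher, against 10.7% of all genes, and 0 of the other 3 lists. With the resting fibroblast level as a term 31 of the 35 cell cycle genes were lower, against 17.1% of all genes in that model. There 9 of the 25 macrophage and 6 of the 20 antigen presentation genes were higher, against 13.3% of all genes. That level separated the groups, so its term overlaps with treatment and no conclusion is drawn from these counts. Of 22 T and NK cell genes 1 rose (4.55%, against 5.81% of all genes). Cd5, a receptor that dampens T cell signals, was 4.26 to 6.33 CPM with a median of 5.36 with SB525334, against 2.17 to 3.63 CPM with a median of 2.76 with vehicle, without overlap (0.85 ± 0.17, adjusted p = 3.59e-04). Of 28 interferon-induced genes 1 fell (3.57%, against 6.02% of all genes). Of 22 vascular endothelial genes 4 fell (18.2%, against 6.02% of all genes) and 0 rose, among them Kdr, the main VEGF receptor (-0.33 ± 0.10, adjusted p = 0.0209, lost without SB525334 replicate 3 or vehicle replicate 1 or 3). Of 21 adipocyte genes 4 fell (19.0%, against 6.02% of all genes) and 0 rose, among them Cfd, or adipsin (-0.91 ± 0.29, adjusted p = 0.0258, lost without SB525334 replicate 2 or 8 or vehicle replicate 1 or 3). Among 20 NRF2 target genes 3 rose (15.0%, against 5.81% of all genes), with Hmox1, or heme oxygenase, at 0.86 ± 0.25 (adjusted p = 0.015, lost without SB525334 replicate 6). The BMP target Id3 fell (-0.57 ± 0.16, adjusted p = 0.00986), 1 of 12 in its list (8.33%, against 6.02% of all genes). Id3 lost its call with no plate term, on each plate and without the 3 libraries richest in lung transcripts (adjusted p = 0.0616). It also did with the hair shaft (-0.30, adjusted p = 0.0581) or basal keratinocyte level as a term (-0.26, adjusted p = 0.255).

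Day 28 offered separate libraries, 8 with SB525334 and 7 with vehicle. There 3780 of 15825 genes (23.9%) were called, 1937 higher (12.2%) and 1843 lower (11.6%). Of the 919 genes higher at day 21, 420 were also higher at day 28, which is 45.7% of the day 21 list and 21.7% of the day 28 list, and of the 953 lower 575 were also lower (60.3% and 31.2%). The days share no libraries but do share the model's spread and plate terms. Krt2 was 3.95 ± 0.49 at day 28 (adjusted p = 3.26e-09), and 11 of the 24 suprabasal genes rose. Flg did not pass at day 28 (0.14 ± 0.36, adjusted p = 0.803), and the difference between its effects of days 21 and 28 was not called (adjusted p = 0.211). Col1a2 was -1.06 ± 0.25, Postn -1.84 ± 0.24, Ogn -2.44 ± 0.25 and Angptl1 -3.46 ± 0.39 at day 28, all called. Antigen presentation genes (12 of 20 higher), macrophage genes (10 of 25 higher) and sebaceous genes (12 of 17 higher) were called at day 28. By test 0 of each list differed between the days, against 0.0569% of all genes. At so low a share this count does not show equal effects on the 2 days. Skil, upward and short of a call at day 21, fell at day 28 (-0.32 ± 0.12, adjusted p = 0.0374), with a difference at adjusted p = 0.101.

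The effect itself differed between the days for 9 genes (0.0569%), 6 with a higher value at day 21 (0.0379%) and 3 with a lower one (0.019%). Cdkn1c, an inhibitor of the cell cycle, was -0.10 ± 0.24 at day 21 and -2.02 ± 0.26 at day 28, a difference of 1.93 ± 0.36 (adjusted p = 0.00525). Plagl1, a zinc finger factor, was -0.08 ± 0.14 at day 21 and -1.26 ± 0.15 at day 28 (difference 1.18 ± 0.21, adjusted p = 0.00322). Both are imprinted genes, and both passed at day 28 and not at day 21. The other 7 were Nrk, Cask, Dlk1, Aff4, Tmem184a, Sema4a and Tfap2e. Among all genes 2213 had a difference at an unadjusted p under 0.05, and DESeq2 called 48 and limma voom 1662.

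**Figure D4:**
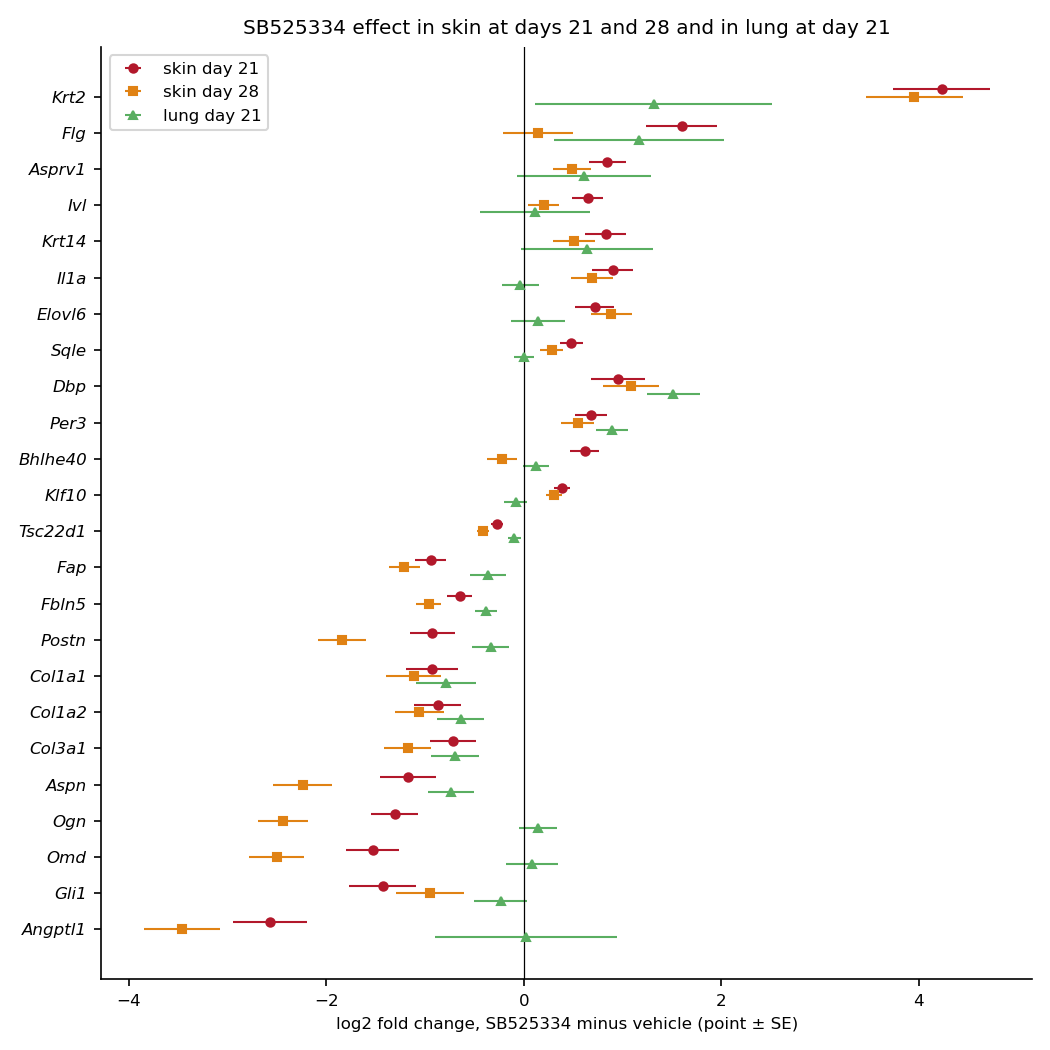
Log2 fold change, SB525334 minus vehicle, with bars of 1 SE, for 24 genes in skin at day 21 (circles), skin at day 28 (squares) and lung at day 21 (triangles). Krt2 lies far to the right in skin on both days, Angptl1, Omd and Ogn lie to the left in skin and near 0 in lung, and Dbp and Per3 lie to the right in all 3.

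The lungs of the same 2 treatment groups, 9 and 7 libraries, gave 36 calls among 16585 genes (0.217%). Of the 919 genes higher in skin 3 were also higher in lung, and of the 953 lower 5 were also lower. Skin and lung effects differed by test for 317 genes (1.91%), 143 with a higher value in skin (0.862%) and 174 with a lower one (1.05%). Among them were 130 of the skin's higher genes and 132 of its lower ones, each with the skin value on the side of its skin change. These genes were called in the same skin libraries, so their choice favoured that side and it is no separate evidence. For Ogn the lung change was 0.15 ± 0.19, and the difference was -1.43 ± 0.27 (adjusted p = 6.30e-04). Col1a2 was -0.64 ± 0.24 in lung (adjusted p = 0.523), and its difference of -0.21 ± 0.34 was not called (adjusted p = 0.891). No label ties a skin biopsy to a lung of the same mouse, and the fit took them as separate.

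Bleomycin's own effect was set beside that of SB525334. Vehicle skin against PBS skin at day 21 called 6518 genes (41.2%), 3191 higher (20.2%) and 3327 lower (21.0%), and this comparison shares the 7 vehicle libraries with the one above, so that values stand side by side only. Col1a2 was -0.87 ± 0.24 for SB525334 minus vehicle and 0.70 ± 0.24 for vehicle minus PBS, Postn was -0.93 ± 0.23 and 1.71 ± 0.24, and Aspn was -1.17 ± 0.28 and 2.04 ± 0.30. Angptl1 was -2.57 ± 0.37 and -0.73 ± 0.36, and Fndc1 -1.45 ± 0.21 and -0.32 ± 0.22, where neither vehicle minus PBS value passed. Krt2 was 4.23 ± 0.49 and 0.35 ± 0.48 (adjusted p = 0.575). For Col1a2, Postn and Aspn the 2 changes had opposite signs. Flg was 1.60 ± 0.36 and 1.60 ± 0.36 (adjusted p = 2.22e-04).

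Day 14 bleomycin against PBS shares no libraries with day 21 and called 9427 genes (59.6%), 4981 raised (31.5%) and 4446 lowered (28.1%). The labels of the day 14 groups name no oral vehicle, while the day 21 groups were dosed by mouth from day 12. Of the 4981 genes raised at day 14, 658 (13.2%) were higher and 14 (0.281%) lower in SB525334 than in vehicle skin a week later. Of the 4446 lowered at day 14, 30 (0.675%) were higher and 750 (16.9%) lower. Of the 6398 not called at day 14, 231 (3.61%) were higher and 189 (2.95%) lower. The median SB525334 change was 0.07 for the raised genes, -0.16 for the lowered genes and -0.03 for the rest. So 658 of the 919 higher genes and 750 of the 953 lower ones had the direction that bleomycin gave at day 14. Among genes raised at least 2-fold at day 14, 156 of 1197 (13.0%) were higher and 3 (0.251%) lower. Among genes lowered at least 2-fold at day 14, 335 of 1208 (27.7%) were lower and 0 higher. Ogn is an example, -2.67 ± 0.25 at day 14 and -1.31 ± 0.24 under SB525334, as is Col1a2, -1.39 ± 0.24 at day 14, which with vehicle was above PBS by day 21. Serpinb3a rose by 7.03 ± 0.65 at day 14.

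**Figure D5:**
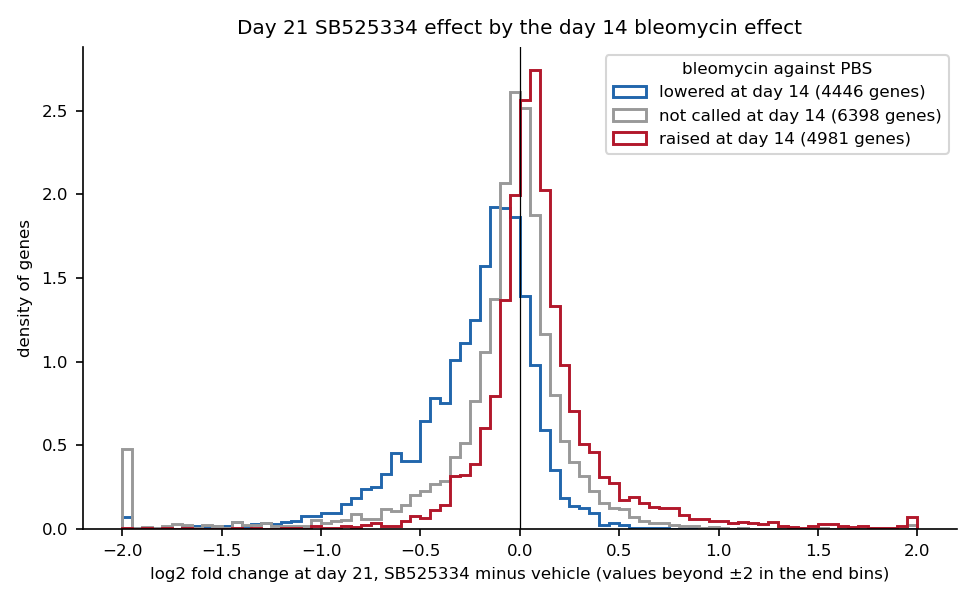
Distribution of the day 21 log2 fold change, SB525334 minus vehicle, for 4446 genes lowered, 6398 not called and 4981 raised by bleomycin at day 14, as density of genes, with values beyond ±2 placed in the end bins. The curve of the lowered genes is shifted left and that of the raised genes slightly right of 0.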

How the data were processed

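Skin and lung RNA was sequenced as stranded total RNA after ribosomal depletion, per the labels' protocols. The authors deposited expected counts per gene, estimated with RSEM on GRCm38 and not scaled to depth, per the submitters' processing notes. They also deposited log2 CPM, a table whose title says it was plate corrected, and edgeR is named for it in the submitters' processing notes. The aligner, the version of each tool and the method of the plate correction are not given in the sources used here. How the estimates divided reads between near-identical genes cannot be checked from these tables, and 83.7% of the expected counts were whole numbers.

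Expected counts were rounded to whole numbers and tested with edgeR 4.0.16 in R 4.3.3 (filterByExpr by group, TMM scaling, quasi-likelihood F test). The 93 skin libraries of 12 groups were fitted together with plate as a term, and lung was added for the skin and lung difference (186 libraries). A gene was called at a Benjamini-Hochberg adjusted p under 0.05 over all genes tested. The SE of a log2 fold change is its size divided by the square root of F. Of 22095 gene IDs 21852 were matched to GENCODE M21 names and 243 were not. Total expected counts were 14.68 to 43.07 M per skin library. No 2 libraries held identical values.

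The gene lists and the genes shown were chosen with earlier results of these data known, and no list count supports a direction by itself. Named genes were the 10 largest rises and the 10 largest falls among called genes with a mean log2 CPM of 1 or more and a gene symbol that is not a clone or model name, a set of TGF-beta pathway anchors, up to 4 genes with the smallest p in each list described, and the smallest p of a difference of effects. Further genes, among them the Hedgehog genes, Dsp, Flg, Pdgfrl, Fndc1, Tnmd, Rnf112, Plagl1 and Cdkn1c where these fall outside that rule, were chosen after their values were seen. Some genes of the lists are not reported here.

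The fits were repeated with DESeq2 1.42.0, RLE scaling, every gene with a count, limma 3.58.1 (voom with quality weights, and limma-trend on the deposited log2 values), no plate term, 4 sections of the plates, each plate alone, the 2 groups alone, a replicate block, marker levels as terms and each library left out. The terms for basal keratinocytes and resting fibroblasts, the fits without libraries richest in lung or neutrophil transcripts and the plate fits within all skin groups were chosen after seeing the data. Same-numbered SB525334 and vehicle libraries did not deviate together (7 pairs, correlations -0.37 to 0.50, 1 above 0.1), so the numbers were not taken as pairs. The edgeR step was tested on simulated data.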

Additional observations from a re-analysis of the deposited data

Results flagged for a closer look

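Of 244 gene or marker levels tested within a group for a single library standing apart from the rest, 30 were flagged. Chance flags about 1 in 20. No cause was tested. SB525334 replicate 7 stood above its group in hair transcripts, with 352 CPM summed over hair shaft genes, 7.51 CPM of Krt35, 0.677 CPM of Krtap5-2, 8.92 CPM of S100a3, 0.508 CPM of Foxe1, 14.8 CPM of Krt28 and 0.621 CPM of Shh. It also stood apart for Il1f8 at 27.7 CPM. SB525334 replicate 8 had 1112 CPM summed over neutrophil genes, with 519.8 CPM of Lama3 and 19.5 CPM of Ltbp3. SB525334 replicate 4 stood apart for Cdkn2b at 9.34 CPM and Il6 at 5.76 CPM, and replicate 1 for skeletal muscle genes at 4859 CPM in sum.

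Vehicle replicate 4 stood above its group in keratinocyte and neutrophil transcripts: 634 CPM summed over neutrophil genes, 2359 CPM of Krt5, 6073 CPM of Krt14, 2617 CPM of Krt16, 4927 CPM of Krt6a, 332 CPM of Lama3, 587 CPM of Itga6, 10.5 CPM of Sprr2d and 16.7 CPM of Wfdc12. Vehicle replicate 1 stood below its group for Col1a1 at 1014 CPM, Mfap4 at 50.4 CPM, Rnf112 at 0.529 CPM and Acta2 at 99.2 CPM. Vehicle replicate 3 had 968 CPM summed over lung genes, vehicle replicate 2 had 29.6 CPM of Dhcr7 and vehicle replicate 5 had 10.9 CPM of Tgfb1.

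The SB525334 effect differed by test between skin at days 21 and 28 for 9 genes, and between skin and lung at day 21 for 317 genes.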

How the results depend on the processing

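For SB525334 against vehicle at day 21, 1872 genes (919 higher, 953 lower), the count moved by over 1.5 times with limma voom (3440; 1686 and 1754), the hair shaft term (4632; 2108 and 2524), the resting fibroblast term (4806; 2105 and 2701), plate 1 alone (929; 606 and 323), plate 2 alone (16; 1 and 15), the plates within the fit of all skin groups (plate 1: 772, 438 and 334; plate 2: 179, 60 and 119) and without the 3 libraries richest in lung transcripts (776; 369 and 407). The plate fits and the last one hold fewer libraries of the 2 groups; for the other settings the cause was not tested. Leaving out 1 library at a time gave 1348 to 2321 calls, 718 to 1180 higher and 630 to 1141 lower, with the fewest without vehicle replicate 3. The share of calls that were higher was 49.1%, against 65.2% with plate 1 alone, 6.2% with plate 2 alone, 33.5% with plate 2 in the fit of all skin groups and 60.7% without the libraries rich in neutrophil transcripts.

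The day 28 count was 6622 with limma voom. The difference between days was 48 with DESeq2, 1662 with limma voom and 2 with the replicate block. The difference between skin and lung was 200 with no plate term. With the replicate block 1815 genes were called at day 21 (919 higher, 896 lower), and 1 of the 7 libraries correlated best with its own number. Of the 92 called genes named, 63 kept their call in every fit without 1 library and 4 in every other alternative. Directions reversed for Nnat with plate 2 alone (0.059) and in the fit of all skin groups (0.069), and for Itga6 with the basal keratinocyte term (-0.040). Itga6 is 1 of the 12 genes summed for that term, which takes up part of its own change. Depth was similar in the 2 groups, and genes near 0 CPM such as Shh have folds that rest on few reads.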
